A study of Mus musculus with 6 samples.

Results

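The cytokines IL-2, IL-7 and IL-15 signal to lymphocytes through shared receptor chains, and 7 genes of this axis were followed through single-cell RNA of mouse skin. They were Il15 and Il7, which encode 2 of the cytokines, and Il15ra, Il2ra, Il2rb, Il2rg and Il7r, which encode receptor chains. The genes were chosen by name, and all 7 are among the 16158 genes with values in all 6 libraries. The mice, 6 to 12 weeks old, were of the NINJA strain, which carries an inducible neoantigen. All had skin treated with 4-OH-Tam, from which a 10x Genomics 5' library was made for each mouse. By the labels there were 3 groups of 2 mice, NO_AG (antigen off), AG (antigen on) and AG_CPI (antigen on with CPI, which the labels do not spell out). They state that P14 CD8 T cells had been recovered from the skin of each mouse and checked before sequencing, and they give no sex, batch or further allele. P14 cells carry a transgenic T cell receptor, and its beta chain uses the segment Trbv13-3.

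As background, Il2rg encodes the common gamma chain, which the receptors for all 3 cytokines share. Il2rb encodes the beta chain shared by the IL-2 and IL-15 receptors, and Il2ra encodes the alpha chain that gives the IL-2 receptor its high affinity and that regulatory T cells carry. Il7r encodes the alpha chain of the IL-7 receptor, which also serves the receptor for TSLP and is kept by naive and memory T cells and lowered on many effector T cells. Il15ra encodes the chain on which a cell presents IL-15 to its neighbours. In skin, keratinocytes are a known source of IL-7 and IL-15, which support T cells that reside there.

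By the GENCODE vM21 annotation of build mm10 each gene is protein-coding. Il2ra spans chr2:11642807-11693193 on the plus strand and Il15ra follows it at chr2:11705290-11734317. Il2rb lies at chr15:78479256-78495271, Il7r at chr15:9505788-9530176, Il15 at chr8:82331632-82403222 and Il7 at chr3:7569994-7613760, all on the minus strand. Il2rg lies on the X chromosome, at chrX:101264378-101268255 on the minus strand. A promoter window from RefSeq on GRCm38 was at hand for 4 of the 7 genes. For Il2rg and Il2ra the 250 bases lie wholly before the annotated gene, and they are shown because these genes passed a test between groups below.
Il2rg, chrX:101268256-101268505, minus strand: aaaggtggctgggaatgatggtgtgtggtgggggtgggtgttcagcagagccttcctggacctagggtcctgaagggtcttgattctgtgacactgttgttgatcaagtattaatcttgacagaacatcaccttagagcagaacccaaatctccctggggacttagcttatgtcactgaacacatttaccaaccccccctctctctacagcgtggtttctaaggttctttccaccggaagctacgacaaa
Il2ra, chr2:11642542-11642791, plus strand: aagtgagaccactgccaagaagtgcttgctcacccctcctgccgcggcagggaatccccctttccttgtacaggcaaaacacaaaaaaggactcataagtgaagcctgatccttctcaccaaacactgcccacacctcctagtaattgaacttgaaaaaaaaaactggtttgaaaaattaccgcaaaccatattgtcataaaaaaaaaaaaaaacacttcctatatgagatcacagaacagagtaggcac
Both strands were searched for 3 motifs picked with the results known, so no base is in capitals unless a motif was found. Neither of these windows held TTCNNNGAA (STAT dimer), GTAAACA (FOXO) or CTTTGA (TCF or LEF). Of 32851 windows of this length, 7.02%, 3.17% and 13.8% held them. The windows of the other two genes overlap the annotated genes and are not shown. That of Il7r held TTCNNNGAA at 142 to 134 bases before the RefSeq start, and a window of Il15ra held CTTTGA at 202 to 197 bases before its start.

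The libraries held 4972 and 4095 cells for NO_AG, 3503 and 4664 for AG, and 1736 and 2208 for AG_CPI, with 5903724 to 24656382 UMIs each. After filters 20464 of 21178 cells remained, and clusters were named from marker lists into 14 classes. Each class name below stands for cells that are like that type by these markers, and 2569 cells stayed unnamed. The class called NK or ILC1 also carried Cd3e. The number of barcodes shared by 2 libraries was 5 to 35 over the 15 pairs. In AG_CPI 1, Ddx3y, a Y-linked gene, was found in 17.7% of keratinocytes, 9.56% of CD8 T cells with another beta segment than Trbv13-3 and 0.614% of those with it, and no cell of the other 5 mice had it in the classes examined. In that mouse 68.8% of the CD8 T cells with Trbv13-3 had Xist, against 12.5% of those with another beta segment. Levels are a gene's UMIs out of every 10000 in the cell, given as the mean over a class in 1 mouse with at least 10 of its cells. The genes are counted by UMI and not by length, so levels are compared between cells and not between genes.

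Il2ra separated the regulatory T cells from the other classes. It was at 4.67 and 7.14 UMIs per 10000 in the regulatory T cells of NO_AG, 5.39 and 7.94 for AG, and 6.30 and 6.64 for AG_CPI. Conventional CD4 T cells came next, at 1.63 and 0.439 for NO_AG, 2.29 and 2.88 for AG, and 1.82 and 3.80 for AG_CPI. No mouse's conventional CD4 T cells reached the lowest value of the regulatory T cells. From the conventional CD4 T cells downward every neighbour in the order overlapped the next over mice, with CD8 T cells at 0.217 to 0.616. When each cell was thinned to 1500 UMIs, 45.7% of regulatory T cells pooled over mice had an Il2ra UMI, against 0.929% of keratinocytes, which should lack it. Median depths before thinning were 2534 and 4568 UMIs. Regulatory T cells did not differ between groups past the threshold in any member, with 0 of 4 members tested called in each of the 3 comparisons. The background there was 0% of 7341 genes in limma with Benjamini-Hochberg adjustment, and 318, 177 and 679 genes had an unadjusted p under 0.05 in AG against NO_AG, AG_CPI against AG and AG_CPI against NO_AG.

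Il2rb was a gene of the lymphocytes. NK or ILC1 cells had 7.40 and 8.60 UMIs per 10000 for NO_AG, 10.1 and 11.4 for AG, and 5.42 in the AG_CPI mouse with enough cells. Dendritic epidermal T cells, the gamma-delta T cells that live in mouse epidermis, had 4.97 and 5.49, 6.26 and 6.68, and 6.50. The ranges of these classes overlapped. After thinning, 69.4% of NK or ILC1 cells, 54.2% of dendritic epidermal T cells and 46.4% of CD8 T cells had an Il2rb UMI, against 1.78% of keratinocytes. Il2rg was spread over every lymphocyte class and was highest in the dendritic epidermal T cells, with 12.7 and 14.6 for NO_AG, 16.4 and 12.0 for AG, and 13.7 in AG_CPI 2. The next class, NK or ILC1 cells, reached 9.80 and did not overlap them. After thinning, 84.8% of dendritic epidermal T cells had an Il2rg UMI, against 3.40% of keratinocytes. In NO_AG 1 and NO_AG 2, 42.5% and 49.0% of the thinned dendritic epidermal T cells had UMIs of both Il2rb and Il2rg.

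Il7r was lower in the dendritic epidermal T cells than in every other lymphocyte class. Gamma-delta type 17 cells had 10.4 and 14.1 UMIs per 10000 for NO_AG and 9.99 and 14.2 for AG. ILC2, innate cells that make type 2 cytokines, had 6.75 and 6.35 for NO_AG and 7.20 and 9.59 for AG, which lay below every value of the gamma-delta type 17 cells. Regulatory T cells ranged from 1.71 to 12.6 and overlapped both the ILC2 and the gamma-delta type 17 cells. Conventional CD4 T cells ranged from 2.30 to 6.11, NK or ILC1 cells from 1.22 to 3.42 and CD8 T cells from 1.02 to 2.65. Dendritic epidermal T cells had 0.0430 and 0.00846 for NO_AG, 0.0974 and 0.371 for AG, and 0 in the 10 cells of AG_CPI 2. They thus combined the highest Il2rg levels and high Il2rb with almost no Il7r, since 0.614% of them had an Il7r UMI after thinning, against 1.64% of keratinocytes. The share was 70.1% in gamma-delta type 17 cells and 56.0% in ILC2. Il7r also reached myeloid cells, with thinned shares of 41.8% in plasmacytoid dendritic, 37.6% in dendritic or Langerhans and 27.0% in monocyte or macrophage cells.

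**Figure D1:**
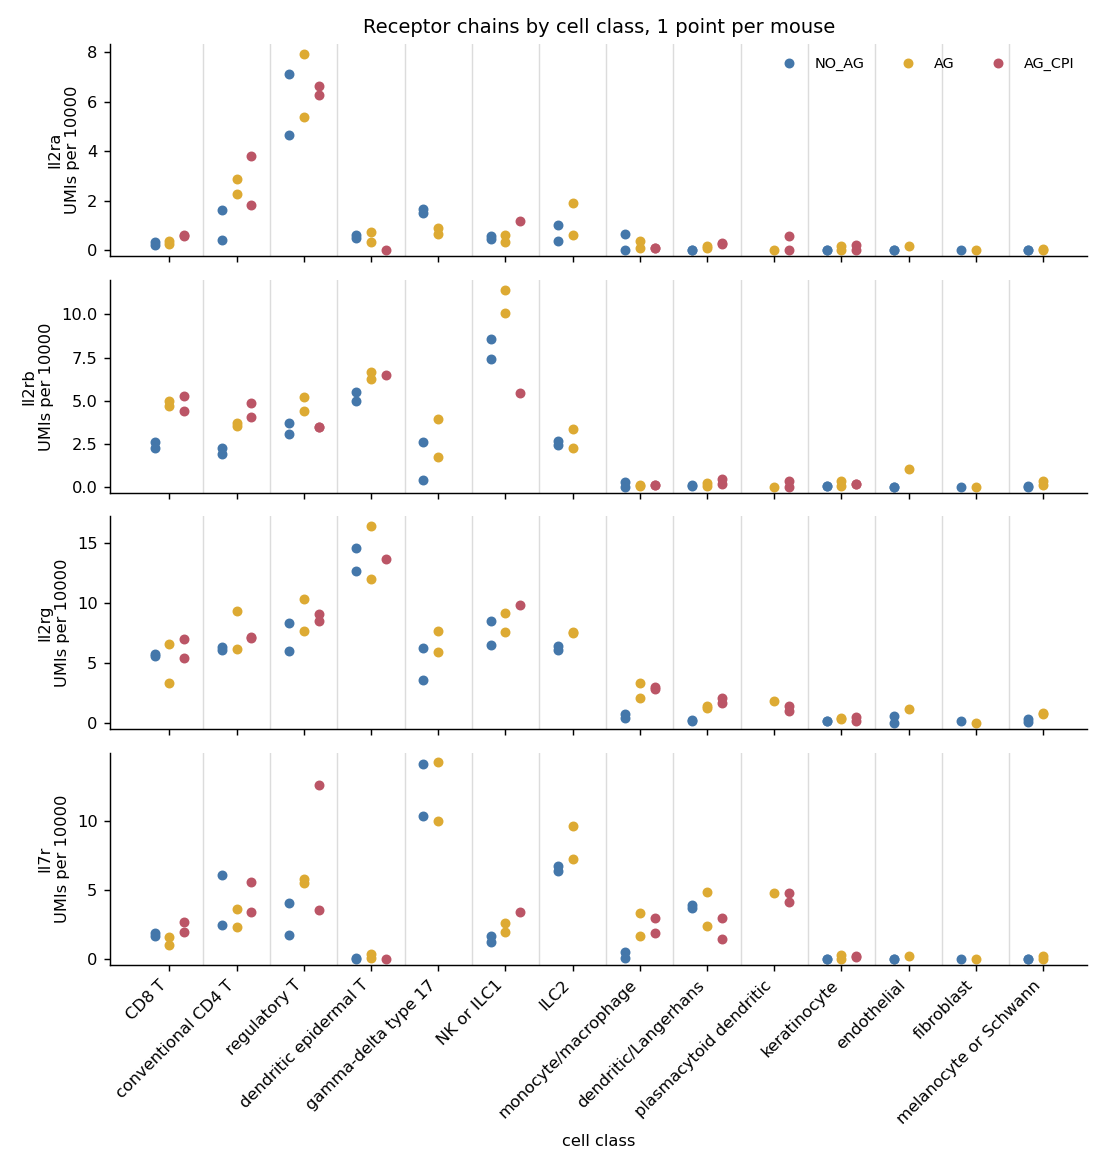
Levels of Il2ra, Il2rb, Il2rg and Il7r (y axes, UMIs per 10000) in 14 cell classes (x axis), with 1 point for each mouse that had at least 10 cells of the class, coloured by group. Il2ra stands out in regulatory T cells at 4.67 to 7.94, Il2rg in dendritic epidermal T cells at 12.0 to 16.4 and Il7r is high in gamma-delta type 17 cells at 9.99 to 14.2, which regulatory T cells overlap.

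The cytokines were sparse. Over all kept cells 475 UMIs of Il15, 849 of Il15ra and 391 of Il7 were counted. Keratinocytes, 38.4% of these cells, gave 53.5% of the Il15 UMIs, 61.8% of the Il15ra UMIs and 48.3% of the Il7 UMIs. They also held more UMIs per cell than CD8 T cells, in NO_AG 24801030 from 4258 cells against 1391932 from 483. Their share of the cells thus understates their share of all UMIs, against which the 3 shares would be less raised. Fewer cells of a type and less RNA per cell cannot be told apart in such totals. Per cell, dendritic or Langerhans cells had more Il15 in the NO_AG mice, at 0.317 and 0.270 UMIs per 10000, than in AG, at 0.0971 and 0.0131, or in AG_CPI, at 0.0799 and 0.0674. Both NO_AG values lay above the 4 others, but limma did not call the difference (AG against NO_AG, log2 fold change -1.31, SE 0.38, adjusted p 0.109), which passed without either AG_CPI mouse (0.0469 and 0.0483). The AG levels rest on 5 UMIs and the AG_CPI levels on 4, and the clusters of this class differed between the groups, as given below. Monocyte or macrophage cells had 0 and 0.161 for NO_AG, 0.123 and 0.103 for AG, and 0.0737 and 0.163 for AG_CPI, with overlap of all groups. ILC2 had 0.133 to 0.169 over 4 mice, from 13 UMIs in all. The thinned share of cells with Il15 was 2.59% in dendritic or Langerhans cells and 0.814% in keratinocytes, against 0.132% in CD8 T cells, whose median depth was 2626 UMIs.

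Il15ra in keratinocytes was at 0.110 and 0.152 UMIs per 10000 for NO_AG, 0.153 and 0.112 for AG, and 0.136 and 0.142 for AG_CPI. The groups overlapped. It was the 1 cytokine-side member that could be tested there, and it differed by 0.07 on the log2 scale between AG and NO_AG (SE 0.18, limma adjusted p 0.964). The highest mean Il15ra levels over mice were in other classes. Endothelial cells had 0.0994 to 0.506 over 3 mice, fibroblasts 0.250 and 0.260 in 2, and conventional CD4 T cells 0 to 0.696 over 6. These classes overlapped. None of 5 members tested in keratinocytes was called in any comparison, against a background of 0.409% of 8322 genes in AG against NO_AG, 0% in AG_CPI against AG and 0.204% in AG_CPI against NO_AG. Il7r of that class was highest in the mice with the most T cell marker RNA. It was 0.315 in AG 2 and 0.205 in AG_CPI 2, where the 13 alpha-beta T cell markers summed to 5.24 and 5.30, against 0.852 to 2.17 in the other 4 mice. All 13 were detected in AG 2 and AG_CPI 2, and Cd4 was at 0 in NO_AG 2 and AG_CPI 1. The part of these markers in the keratinocyte Il7r levels was not tested.

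Il7 had the narrowest distribution. Endothelial cells had 1.52 and 0.557 UMIs per 10000 for NO_AG and 0.0837 in AG 2, and no other mouse had 10 such cells. They gave 7.67% of all Il7 UMIs from 0.562% of the cells. Keratinocytes had 0.0620 and 0.0379 for NO_AG, 0.0553 and 0.0426 for AG, and 0.0214 and 0.0627 for AG_CPI, with overlap of all groups. After thinning, 9.57% of endothelial cells and 0.789% of keratinocytes had an Il7 UMI, against 0.0220% of CD8 T cells. A single unnamed cluster of 545 cells gave 130 of the 391 Il7 UMIs, or 33.3%. Its leading genes were Fgfbp1, Aldh3a1, Apoc1 and Anxa8, and its Il7 levels were 0.365 and 0.445 for NO_AG and 0.0429 and 0.501 for AG. It held 326 and 167 cells for NO_AG, 19 and 29 for AG, and 0 and 4 for AG_CPI. A keratinocyte cluster led by Ccl27a, Fcgbp and Sostdc1 gave a further 18.7%.

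**Figure D2:**
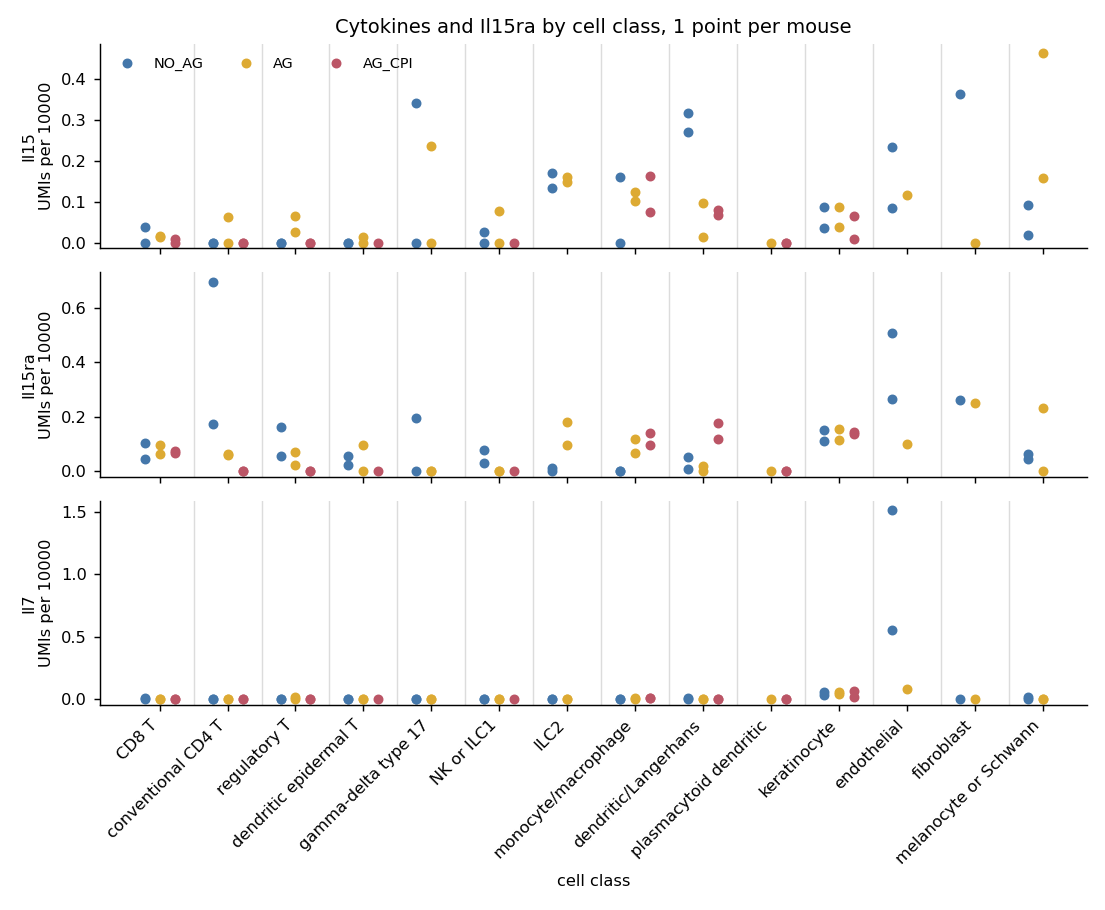
Levels of Il15, Il15ra and Il7 (y axes, UMIs per 10000) in the same cell classes (x axis), with 1 point per mouse, coloured by group. Il7 stands out in endothelial cells of the NO_AG mice at 0.557 and 1.52, while most points of Il15 and Il15ra lie under 0.3 and overlap between groups.

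The comparison of AG with NO_AG asks what antigen in the skin changed, and that of AG_CPI with AG what CPI added. In CD8 T cells as a whole Il2rb was higher with antigen. It was at 2.24 and 2.60 UMIs per 10000 for NO_AG, 5.002 and 4.70 for AG, and 5.26 and 4.37 for AG_CPI. Both NO_AG mice lay below the 4 others. The log2 fold change was 1.10 in AG against NO_AG (SE 0.16, limma adjusted p 0.00372) and 1.06 in AG_CPI against NO_AG (SE 0.16, adjusted p 0.00337). These comparisons share the NO_AG mice. The mix of the class differed too, with Trbv13-3 in 1.71% and 3.28% of its cells for NO_AG and 48.5% and 60.0% for AG. In CD8 T cells with another segment the log2 fold change was 0.29 in AG against NO_AG (limma adjusted p 0.82). In AG_CPI against NO_AG it was 0.92 there (adjusted p 0.0133). A change within cells and a change of this mix cannot be told apart in the whole class. Fold changes are on the scale of log2 of the level plus 0.1, which understates the change of low genes. Of 4 members tested, Il2rb alone was called in AG against NO_AG, where 2.38% of 7386 genes were called. It was 1 of 2 members called in AG_CPI against NO_AG, where 3.91% of genes were. The call of AG against NO_AG was lost without NO_AG 1 (adjusted p 0.0505) and with no filter on low values (0.0624), and that of AG_CPI against NO_AG without AG_CPI 1 (0.0838). With 2 mice against 2, no permutation test can give a p below 0.333, so calls rest on the spread that limma shares over genes.

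Il2ra in CD8 T cells was at 0.342 and 0.217 for NO_AG, 0.375 and 0.252 for AG, and 0.569 and 0.616 for AG_CPI. It rose in AG_CPI against NO_AG (log2 fold change 0.96, SE 0.24, limma adjusted p 0.0454), a call near the threshold that 6 of the alternatives ended. Without AG_CPI 1 or AG_CPI 2 the adjusted p was 0.293 and 0.312, and without NO_AG 2 it was 0.0898. The AG values overlapped those of NO_AG. In CD8 T cells with another segment alone, Il2ra did not pass in AG_CPI against NO_AG (log2 fold change 0.81, SE 0.36, limma adjusted p 0.306). Il2rg had 5.74 and 5.56 for NO_AG, 6.54 and 3.31 for AG, and 5.43 and 6.99 for AG_CPI, and the AG mice enclosed the NO_AG mice. Il7r was at 1.87 and 1.64, 1.57 and 1.02, and 1.94 and 2.65, and it did not pass in any comparison of all CD8 T cells. No member was called in AG_CPI against AG in any class. In CD8 T cells that stood against a background of 0.108%, with 381 genes at an unadjusted p under 0.05.

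Il2rb was not called in the other lymphocytes. On simulated AG against NO_AG data, 2-fold changes were recovered in 15.1% of cases in CD8 T cells. The share was 0.476% in conventional CD4 T cells and 0% in dendritic epidermal T cells, so a missing call there does not show an unchanged level. Conventional CD4 T cells had 1.88 and 2.22 UMIs per 10000 for NO_AG, 3.67 and 3.53 for AG, and 4.06 and 4.85 for AG_CPI, and the groups did not overlap. The log2 fold change was 0.78 in AG against NO_AG (SE 0.29, limma adjusted p 0.995) and 1.01 in AG_CPI against NO_AG (SE 0.29, adjusted p 0.235). The background was 0.0283% and 0.17% of 7067 genes. The difference between the CD8 and conventional CD4 T cell effects of AG against NO_AG was 0.32 (SE 0.47, adjusted p 0.997), so an effect restricted to CD8 T cells was not shown. In regulatory T cells the AG mice lay above the NO_AG mice and AG_CPI overlapped NO_AG, with means of 3.37 for NO_AG, 4.79 for AG and 3.46 for AG_CPI. In gamma-delta type 17 cells the AG and NO_AG mice overlapped. In dendritic epidermal T cells the AG mice also lay above the NO_AG mice, by 0.38 (SE 0.15, adjusted p 0.736), and in NK or ILC1 cells by 0.45 (SE 0.16, adjusted p 0.667), while the AG_CPI mouse of the latter class lay below both NO_AG mice. Without AG 1 these differences passed, at adjusted p of 0.021 and 0.0391. In both classes 0% of genes were called, with 422 and 542 at an unadjusted p under 0.05.

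**Figure D3:**
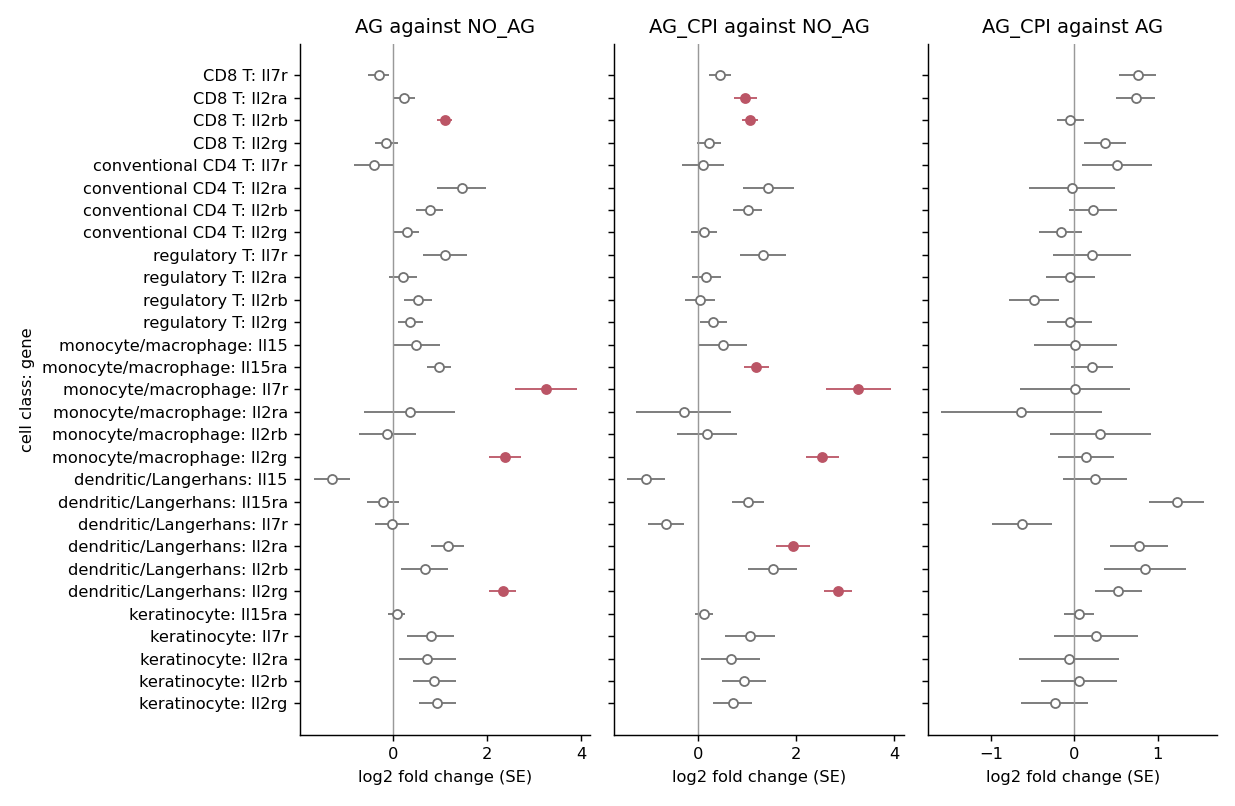
Log2 fold changes of the members tested (x axes, points with SE) in 6 cell classes (y axis) for the 3 comparisons, each on its own scale, with filled points for an adjusted p under 0.05 in limma. Filled points appear in CD8 T, monocyte or macrophage and dendritic or Langerhans cells against NO_AG, and the panel of AG_CPI against AG has none.

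Cells with the P14 segment were then set against the other CD8 T cells. The share of CD8 T cells with a Trbv13-3 UMI was 1.71% and 3.28% for NO_AG, 48.5% and 60.0% for AG, and 58.3% and 67.5% for AG_CPI. A host's own T cells may use this segment as well. Of cells with it, 89.4% and 80.1% for AG and 77.7% and 86.0% for AG_CPI also had Trav14-1, an alpha segment that marked the same clusters, while 0 of the 2 and 0 of the 12 such cells of NO_AG had it. Among CD8 T cells with only other beta segments, Trav14-1 was found in 0.826% and 5.56% for AG and 16.2% and 10.8% for AG_CPI. The other-segment cells of AG_CPI thus held more cells with that alpha segment than those of AG, and its part in the results below was not tested. The contrasts between groups within each kind of cell were added after the levels had been seen.

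Il7r moved in opposite directions in the 2 kinds of CD8 T cell. In cells with Trbv13-3 it was at 0.630 and 0.597 UMIs per 10000 for AG, from 472 and 458 cells, and at 2.14 and 2.89 for AG_CPI, from 651 and 813 cells. In cells with another segment it was at 2.15 and 1.61 for NO_AG, 2.69 and 2.58 for AG, and 1.29 and 1.52 for AG_CPI. The AG and AG_CPI mice did not overlap in either kind of cell. In Trbv13-3 cells Il7r rose in AG_CPI against AG by a log2 fold change of 1.82 (SE 0.19, limma adjusted p 0.00339), where 0.942% of 7003 genes were called. This call held under every alternative run. Among them, leaving out a mouse leaves 1 in its group, which is then assumed to vary like the other group. In the other cells Il7r fell by 0.90 on the log2 scale (SE 0.22, adjusted p 0.0382), against a background of 1.65%. That call was lost without AG 1 (0.0875), AG_CPI 1 (0.464) or AG_CPI 2 (0.104) and under the deposited scaling (0.0734). The difference of these differences was 2.72 (SE 0.24, adjusted p 0.00905), with 0.603% of 7634 genes called, and it was lost without AG_CPI 1 (0.0926) or AG_CPI 2 (0.17) and with no filter on low values (0.265). Averaged over all 4 mice, Trbv13-3 and other cells did not differ in any of 4 members, and 0% of genes were called, with 538 at an unadjusted p under 0.05.

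The Il7r values were also compared cluster by cluster, as a description. In the cluster led by Gzma, Klrc1 and Ccl5 along with the P14 segments, CD8 T cells had 0.540 and 1.15 UMIs per 10000 for AG and 2.07 and 3.13 for AG_CPI. In the cluster led by Ccl5 and Gzmk they had 0.383 and 0.184 for AG and 1.46 and 0.920 for AG_CPI. In the cluster led by Ccl1, Gzma and Ifng they had 0.709 and 0.890 for AG and 2.07 and 2.95 for AG_CPI. Both AG_CPI mice lay above both AG mice in each of these 3, and likewise in 2 further clusters with CD8 T cells of all 4 mice. The first held 93 and 54 CD8 T cells in AG and 464 and 498 for AG_CPI, so the mix of clusters differed between the groups as well. In the cluster led by Trbv15, Cxcr3 and Cd40lg beside Cd8a, which held most NO_AG cells, Il7r was at 2.997 and 3.65 for AG and at 5.26 and 1.98 for AG_CPI, with overlap.

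Il2rb followed the segments differently. Trbv13-3 cells had 7.02 and 5.03 UMIs per 10000 for AG and 5.27 and 4.28 for AG_CPI. Cells with another segment had 2.52 and 2.70 for NO_AG, 2.51 and 3.59 for AG, and 5.60 and 4.08 for AG_CPI. The AG cells with another segment overlapped NO_AG, and those of AG_CPI lay above both. In a fit of these cells over all 6 mice the log2 fold change was 0.29 in AG against NO_AG (SE 0.21, limma adjusted p 0.82) and 0.92 in AG_CPI against NO_AG (SE 0.21, adjusted p 0.0133). The backgrounds were 0.236% and 2.85%. The second call was lost without AG_CPI 1, NO_AG 1 or NO_AG 2 and with no filter on low values. AG_CPI against AG did not pass, at 0.63 (SE 0.21, adjusted p 0.213), against a background of 1.38%.

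**Figure D4:**
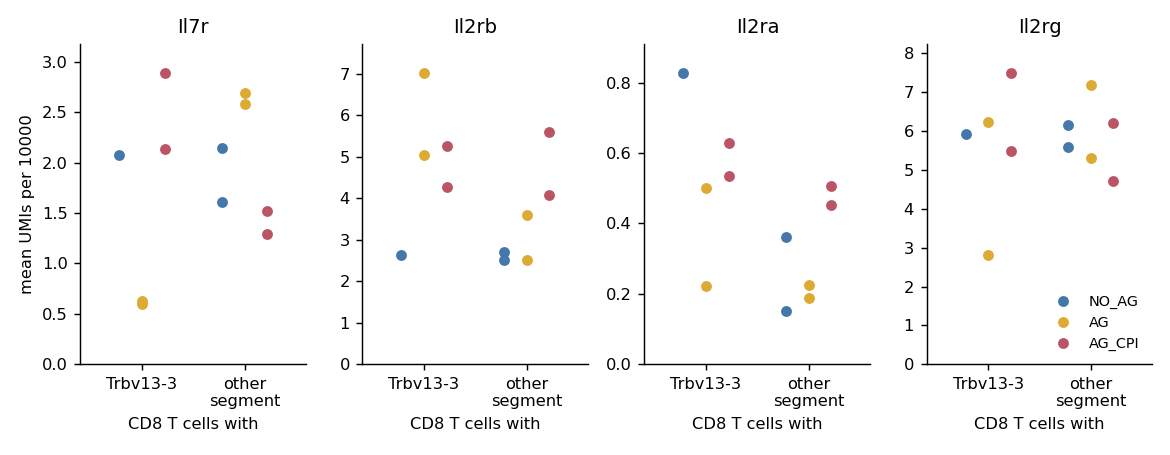
Levels of Il7r, Il2rb, Il2ra and Il2rg (y axes, UMIs per 10000) in CD8 T cells with Trbv13-3 or with another beta segment (x axes), with 1 point per mouse, coloured by group. For Il7r the AG mice are low at 0.597 and 0.630 with Trbv13-3 and high at 2.58 and 2.69 with other segments, and the NO_AG point with Trbv13-3 rests on 12 cells.

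Il2, the gene of the third cytokine, was listed among the other family genes and came from T cells. In CD8 T cells with another segment it was at 0.304 and 0.935 UMIs per 10000 for NO_AG, 1.55 and 0.354 for AG, and 0 and 0.0503 for AG_CPI, from 6, 75, 145, 10, 0 and 3 UMIs. Every AG_CPI value lay below the 4 others. In Trbv13-3 cells it was at 0.132 and 0.0202 for AG and 0.0646 and 0.0465 for AG_CPI. It fell in AG_CPI against AG by 2.84 on the log2 scale in the other-segment cells (SE 0.46, limma adjusted p 0.00144), and the size depends on the 0.1 added to the levels. This call, from the 4 antigen mice, held under every alternative that gave a value, which leaving out AG 1 or AG 2 did not, and with a pseudocount of 0.5 the log2 fold change was -1.35. A fit over all 6 mice gave -2.86 (adjusted p 0.000882), and there the call was lost without AG 1 (log2 fold change -1.92, adjusted p 0.214) or AG_CPI 1 (0.134) and with no filter on low values (0.0683). Tcf7, a transcription factor of naive and memory-like T cells, moved with it in these cells. It fell by 1.59 in AG_CPI against AG (SE 0.27, adjusted p 0.00211), and in all CD8 T cells by 2.08 in AG_CPI against NO_AG (SE 0.22, adjusted p 0.000285). In the latter comparison it fell by 1.17 in the other-segment cells alone (adjusted p 0.00784), a call lost without AG_CPI 2 (0.146) or NO_AG 2 (0.0753). Of the genes tested in all CD8 T cells, 1 of 5 other family genes rose in AG against NO_AG, where 2.38% of all genes were called. It was Crlf2, the TSLP receptor chain that pairs with the Il7r product, by 0.82 (SE 0.18, adjusted p 0.0418), and it also rose in AG_CPI against NO_AG, by 0.93 (SE 0.18, adjusted p 0.0165). Il9r, whose product pairs with the common gamma chain to bind IL-9, fell by 1.64 on the log2 scale in AG_CPI against NO_AG (SE 0.30, adjusted p 0.0106). Neither the 11 signal transducers nor the 7 interferon-responsive regulators tested in CD8 T cells held a call in either comparison with NO_AG, while Bcl2l11, which promotes cell death, rose as 1 of 15 STAT5-induced or survival genes in AG_CPI against NO_AG (0.80, SE 0.19, adjusted p 0.0408). That share is near the 3.91% of all genes called there. The Il9r call was lost without AG_CPI 1 (0.158). The Crlf2 and Bcl2l11 calls were lost without several of the mice, among them AG 1 for Crlf2 in AG against NO_AG (0.114), AG_CPI 2 for Crlf2 in AG_CPI against NO_AG (0.21) and AG_CPI 1 for Bcl2l11 (0.373). In cells with another segment alone none of these passed: Crlf2 differed by 0.26 in AG against NO_AG (adjusted p 0.873) and 0.62 in AG_CPI against NO_AG (0.223), and in the latter Il9r had -1.08 (0.217) and Bcl2l11 0.71 (0.345).

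In monocyte or macrophage cells Il2rg and Il7r were higher with antigen. Il2rg was at 0.699 and 0.390 UMIs per 10000 for NO_AG, 3.32 and 2.05 for AG, and 2.98 and 2.78 for AG_CPI. Il7r was at 0.514 and 0.0486 for NO_AG, 1.64 and 3.35 for AG, and 2.94 and 1.86 for AG_CPI. Neither gene's NO_AG values overlapped the 4 others. The NO_AG levels rest on 13 and 15 cells with 5 UMIs of Il2rg and 4 of Il7r. The log2 fold changes in AG against NO_AG were 2.39 for Il2rg (SE 0.34, limma adjusted p 0.0269) and 3.25 for Il7r (SE 0.66, adjusted p 0.0339), and those in AG_CPI against NO_AG were 2.53 and 3.26 (adjusted p 0.0192 and 0.0327). These were 2 of 6 members tested where 14% of 7257 genes were called, and 2 of 3 called where 14.6% were. Each of these 4 calls was lost when any 1 AG or AG_CPI mouse was left out, with adjusted p of 0.0572 to 0.227. With no filter on low values both Il7r calls and that of Il2rg in AG against NO_AG were lost, and under the deposited scaling both Il7r calls. The third call was Il15ra in AG_CPI against NO_AG (adjusted p 0.0359), which had 0 UMIs in NO_AG. A count of 0 allows a level of up to 0.297 there, above the 0.0972 and 0.141 of AG_CPI, so this difference was not detectable at this depth.

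The class was made of different clusters in the groups. A cluster led by C1qb, Ms4a7 and Mmp12 held 6 and 3 of its cells for NO_AG, 155 and 534 for AG, and 235 and 202 for AG_CPI. A cluster led by Retnla, Folr2 and Ccl8 held 7 and 12, 9 and 14, and 2 and 7. In the first, Il7r was at 1.74 and 3.44 for AG and 2.97 and 1.92 for AG_CPI. In the second it was at 0 in both mice with 10 cells, NO_AG 2 and AG 2, while Il2rg was at 0.303 and 0.539. A change within cells and a change of cluster cannot be told apart in this class. The alpha-beta T cell markers in it summed to 0 and 1.93 for NO_AG, 1.36 and 1.27 for AG, and 2.13 and 1.42 for AG_CPI, with all 13 at 0 in NO_AG 1. All but Cd3e, Cd3d, Cd3g and Trac were at 0 in NO_AG 2. Their sum overlapped between the groups, and their part in the result was not tested.

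In dendritic or Langerhans cells Il2rg rose from 0.156 and 0.255 UMIs per 10000 for NO_AG to 1.25 and 1.41 for AG and 1.67 and 2.05 for AG_CPI. The 3 groups did not overlap. The log2 fold change was 2.33 in AG against NO_AG (SE 0.28, limma adjusted p 0.00301), 1 of 6 members called against a background of 3.63% of 7696 genes. It was 2.86 in AG_CPI against NO_AG (SE 0.28, adjusted p 0.000284), where 2 of 6 members and 16.8% of genes were called. The first call was lost without AG 2 (0.104), and the second held under every alternative run. Il2ra, the other call in AG_CPI against NO_AG (adjusted p 0.00537), was at 0.00880 and 0 for NO_AG, from 2 UMIs, at 0.1 and 0.167 for AG, and at 0.262 and 0.296 for AG_CPI. It was lost without either NO_AG mouse (0.0751 and 0.0937). The background in AG_CPI against AG was 0.65%.

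The clusters of this class differed between the groups too. A cluster led by Cd207 and Mfge8, genes of Langerhans cells, held 193 and 125 cells for NO_AG, 34 and 33 for AG, and none in AG_CPI. Within it Il2rg was at 0.0367 and 0.245 for NO_AG and 0.678 and 0.702 for AG, and Il7r was at 4.12 and 4.16, and 2.92 and 7.85. A cluster led by Ccl22, Il4i1 and Ccr7 held 17 and 8, 20 and 76, and 16 and 15 cells. There Il2rg was at 1.25 in NO_AG 1, 2.47 and 1.89 for AG, and 1.74 and 3.25 for AG_CPI. T cell markers moved with the groups: the 13 summed to 0.455 and 0.250 for NO_AG, 3.14 and 2.70 for AG, and 3.27 and 4.44 for AG_CPI. Foxp3 was at 0 in 4 of the 6 mice and Trbc1 in 3. Cd3e was at 0.492 to 0.973 in the antigen groups, while Il2rg was at 1.25 to 2.05. In CD8 T cells of those mice Cd3e was at 13.9 to 18.8 and Il2rg at 3.31 to 6.99. The part of the T cell markers in the result was not tested.

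**Figure D5:**
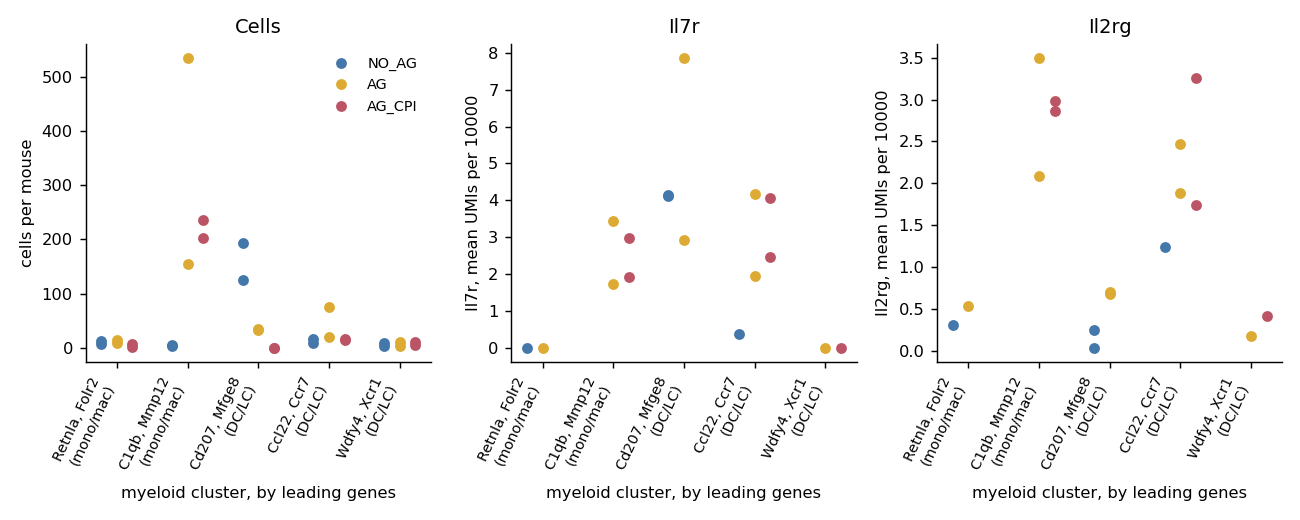
Cells per mouse, Il7r and Il2rg (y axes, the latter in UMIs per 10000) in 5 myeloid clusters named by leading genes and class, where mono/mac is monocyte or macrophage and DC/LC is dendritic or Langerhans (x axes), with 1 point per mouse, coloured by group. The C1qb and Mmp12 cluster holds at most 6 cells in a NO_AG mouse, and the Cd207 cluster holds none in AG_CPI.

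The other genes of the pathway were counted by list. Of 7 interferon-responsive regulators tested in dendritic or Langerhans cells, 6 rose and none fell in AG_CPI against NO_AG, with a median log2 fold change of 2.16 against -0.10 over all genes. Irf7, a regulator of interferon genes, rose by 2.39 (SE 0.41, limma adjusted p 0.00414). Of the 6, 3 calls were lost without NO_AG 1, those of Irf9 (0.245), Socs1 (0.0965) and Irf1 (0.0653), and Irf9 was lost without every other mouse but AG_CPI 2 and Socs1 without NO_AG 2. Of 15 STAT5-induced or survival genes 6 rose and 1 fell, where 16.8% of all genes were called. Ccnd2, a cyclin, rose by 3.70 (SE 0.36, adjusted p 0.000262), Dusp5 by 2.26, Pim1 by 2.21 and Socs2 by 2.81, while Myc fell by 1.34 on the log2 scale. Among the signal transducers 3 of 12 rose, Stat3, Jak3 and Stat5a, and Gab2 fell. The calls of these 4 genes and of Myc were lost without either NO_AG mouse, with adjusted p of up to 0.45, and those of Gab2, Jak3 and Stat5a also without either AG mouse. Ccr7, a leading gene of a dendritic cell cluster above, was at 0.109 and 0.583 UMIs per 10000 in this class for NO_AG. It was at 2.71 and 2.74 for AG, and 4.70 and 6.59 for AG_CPI. A change within cells and a change of cluster cannot be told apart in the lists of this class, nor in those of the next. In monocyte or macrophage cells 6 of 15 STAT5-induced or survival genes rose in AG against NO_AG, with Dusp5 at 2.26, Bcl2 at 1.65, Osm at 2.76 and Socs3 at 2.50, and none fell, against a background of 14%. The median of the list was 1.50, against 0.32 over all genes. Each of the 4 named calls was lost when any 1 AG or AG_CPI mouse was left out, with adjusted p of up to 0.262. Of 12 signal transducers there, 2 fell in AG against NO_AG, Stat6 with a log2 fold change of -1.59 (adjusted p 0.0357) and Jak1 with -1.204 (0.0382), and none rose. Both calls were lost in the same way. In AG_CPI against NO_AG 3 of the 15 rose, where 14.6% of genes were called. In keratinocytes 3 of 7 interferon-responsive regulators rose in AG against NO_AG, among them Irf7 by 2.12 and Stat2 by 1.28, and 0 of 7 in AG_CPI against NO_AG, where 4 had an unadjusted p under 0.05. The backgrounds were 0.409% and 0.204%. The Irf7 and Stat2 calls were lost without NO_AG 1, NO_AG 2 or AG 2, with adjusted p of up to 0.443, and that of Stat2 also without AG 1. The keratinocyte clusters differed between mice as well: one led by Fcgbp, Clca3a2 and Krt15 held 552 and 349 cells for NO_AG, 55 and 3 for AG and 1 and 1 for AG_CPI, and one led by Krt6a and Krt16 held 528 of its 556 cells from AG 2. A change within cells and a change of cluster cannot be told apart there.

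The genes whose levels ran most like a member's over 66 units of class and mouse were sought among 12223 genes, as a description, since units of 1 library share its depth. Pearson's r to Il7r was 0.872 for Gpr183, 0.842 for Fau and 0.830 for Aim2. For Il2ra it was 0.828 for Icos and for Batf and 0.817 for Camk4. Il2rb had 0.937 with Skap1, 0.933 with Gstp3 and 0.931 with Sh2d2a, and Il2rg had 0.909 with Limd2, 0.900 with Hcst and 0.897 with Itgal. Il2rb and Il2rg ran together at 0.863. The highest value for Il7 was 0.975 with Hspa12a. Il15ra had no partner above 0.585, the value for Card10.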

How the data were processed

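Single-cell RNA of 6 skin samples was used. Per the submitters' processing notes, Cell Ranger 3.1 and build mm10 were used. The deposited values are log10 of 1 plus UMIs per 10000, which the values themselves show, as the headers name no unit. Under log10, 100% of inverted values were whole UMIs within 0.05, against 66.9% to 69.8% under the natural log. Raw counts had been allowed for when the tests were chosen. Deposited cells had 1501 to 14995 UMIs. Cells needed 200 genes and at most 20% mitochondrial UMIs, and 663 doublets were removed by score in scanpy 1.11.5. Clustering left out the members and used 2000 variable genes, 30 components and Leiden resolution 1. CD8 T cells had Cd8a or Cd8b1 and no Cd4, with Trdc allowed. Trdc was found in 22.3% to 35.0% of them in AG and AG_CPI.

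The members and lists were chosen with earlier results of these data known. The naming rule was changed after leading genes and cells per mouse were seen, and unnamed lymphoid clusters of at least 200 cells were split after member levels per cluster were seen, before any group test. A lead of 1.25 over the second class left a cluster of 1125 cells, mostly of AG_CPI, unnamed, and 1.2 was used. The segment contrasts and the 6-mouse fit of other-segment cells were added after the levels were seen.

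Class means per mouse were scaled by TMM, a pseudocount of 0.1 was added, and limma 3.58.1 in R 4.3.3 (limma-trend, group as the only term) was run over genes with 10 UMIs and a mean of 0.1 in at least 2 mice. A call is a Benjamini-Hochberg adjusted p under 0.05, and groups were compared only where each had both of its mice. The labels call the samples biological replicates. Levels of every member were computed in every class, and not all of them are given. Up to 4 called genes of a list are named, by smallest p, and for each member up to 3 genes most like it. Some genes that these rules select are not reported here. On simulated AG against NO_AG data, 4-fold changes were recovered in 74.9% of cases in CD8 T cells over 7299 genes, 3.91% in monocyte or macrophage cells over 7347 and 12.8% in conventional CD4 T cells over 6922. False calls were 5.86%, 8.93% and 0% of the calls made. Intervals and limits of a count of 0 cover counting error only.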

Additional observations from a re-analysis of the deposited data

Results flagged for a closer look

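Il7r in CD8 T cells changed differently by beta segment between AG_CPI and AG. The change with Trbv13-3 exceeded that with another segment by 2.72 on the log2 scale (limma adjusted p 0.00905), the difference having been tested directly. Il2 also gave 2.72 (adjusted p 0.0315), from few UMIs in AG_CPI, where the other-segment cells held 0 and 3. With a pseudocount of 0.5 in place of 0.1 the Il2 value was 1.3 and that of Il7r 2.14. The Il2 call was lost without AG_CPI 1 (0.268) or AG_CPI 2 (0.196) and with no filter on low values (0.275), and that of Il7r without AG_CPI 1 (0.0926) or AG_CPI 2 (0.17) and with no filter (0.265). The opposite movement of Il7r itself was 1.82 against -0.90. With 2 mice in a group, no sample could be examined as an outlier.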

How the results depend on the processing

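Member calls summed over classes numbered 4 in AG against NO_AG, 0 in AG_CPI against AG and 7 in AG_CPI against NO_AG. All genes gave 1507, 58 and 2671. With no filter on low values these became 1 and 4 members (first and last comparison) and 263, 5 and 1264 genes. At Leiden resolution 0.5 they were 2 and 3 members and 446 and 1357 genes in the comparisons with NO_AG. With doublets kept, the last comparison had 4 members and the genes numbered 990, 8 and 992. Summed UMIs gave 93 genes in AG_CPI against AG, and the first naming rule tried gave 37. Leaving out 1 mouse gave 1 to 8 members in AG against NO_AG and 3 to 8 in AG_CPI against NO_AG, with 777 to 7579, 27 to 378 and 1599 to 4906 genes. The cause of these shifts was not tested. No member was called in AG_CPI against AG in whole classes, in the average segment difference or in the differences between classes under any setting run.

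The labels' replicate numbers do not tie mice across groups, and deviations of same-numbered mice correlated at -0.235 to 0.201 over classes, so they share only a number. With the replicate number as a block, members called were 3, 0 and 5, and genes 743, 95 and 1848. The average segment difference kept 0 calls under the replicate block.

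Uncalled values changed sign as follows. Il2ra in the difference of segment differences ran from -0.82 to 0.21 over left-out mice, Il2rg in the average segment difference from -0.30 to 0.0835, and Il2rg in other-segment cells, AG_CPI against AG, from -0.457 to 0.0131. Il2 in other-segment cells, AG against NO_AG, ran from -0.439 to 1.46, with -0.136 among them. Of 419 recalculations of called results without 1 mouse, 194 lost the call, and 130 of 705 under other settings did, all in the same direction. Of uncalled results 13 of 201 recalculations without 1 mouse and 4 of 404 under other settings gained a call. Without thinning, 52 of 98 shares of cells moved beyond their interval. The keratinocyte minus fibroblast difference was not run, since 2 mice had both classes. NO_AG depth limits the macrophage values.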
